A study of Mus musculus with 23 samples.

Results

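The mRNA of 9 genes was followed in the mouse pancreas from the uninjured state to day 14 after caerulein-induced acute pancreatitis. These were genes that mark the pancreatic duct, or that are used to recognise acinar-to-ductal metaplasia. They comprised the keratins Krt19, Krt7, Krt8 and Krt18, the chloride channel gene Cftr, the transcription factor gene Sox9, the genes of the secreted proteins osteopontin (Spp1) and clusterin (Clu), and the carbonic anhydrase gene Car2. They were picked by symbol, and all 9 were found among the 18512 symbols of the count files. All animals were C57BL/6 mice of 6 to 8 weeks of age. The baseline group was not injured and held 8 mice (4 females and 4 males). The day 7 group (8 mice, 4 females and 4 males) and the day 14 group (7 mice, 3 females and 4 males) had received caerulein, a cholecystokinin analogue that overstimulates acinar cells, at 50 µg/kg in 8 hourly injections on 2 days. RNA was taken from the head of the pancreas as a whole, so each library held acinar, ductal, islet, stromal, vascular and blood cells together, and fewer cells of a type and less RNA per cell cannot be told apart in it.

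The pancreatic ducts are lined by a simple epithelium that carries the enzymes of the acinar cells to the duodenum and adds a bicarbonate-rich fluid. Cftr and carbonic anhydrases take part in that secretion, Sox9 is expressed in ducts and centroacinar cells, and type I keratins (Krt18, Krt19) pair with type II keratins (Krt7, Krt8) to build the intermediate filaments of simple epithelia. Krt8 and Krt18 are made by acinar cells as well, whereas Krt7 and Krt19 are regarded as ductal. In acinar-to-ductal metaplasia, acinar cells lose their enzymes and take on duct genes, and the rise of Krt19, Krt7, Sox9, Spp1 and Clu is a common readout of it. Spp1 is also made by macrophages, Clu by stressed cells of many kinds, Car2 by red blood cells, and keratins of simple epithelia by mesothelium.

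The libraries held 7059890 to 9567446 counts each, and 14641 to 16653 symbols had at least 1 count. A value of 3 counts, the smallest taken as detectable, corresponded to 0.314 to 0.425 counts per 1000000 (CPM), which covers counting error only. The 20 most abundant genes took 69.4% of the counts at baseline, 60.3% at day 7 and 65% at day 14, and the TMM factors that correct for this ranged from 0.770 to 1.0, from 1.05 to 1.40 and from 0.934 to 1.03. The tissue matched its label, since the lipase gene Pnlip stood at 100900 CPM at baseline. The libraries of 3 mice stood apart. In day 7 mouse 15, 6 erythrocyte markers summed to 678.5 CPM, against 24.4 to 137 CPM in all other mice. In day 14 mouse 19, 6 liver markers summed to 598.7 CPM, against at most 75.0 CPM elsewhere, and 10 duodenal markers to 50.5 CPM, against at most 7.83 CPM. Day 7 mouse 10 had the largest TMM factor, 1.40, and of the day 7 mice the lowest acinar sum and the highest sums of lymphocyte markers (83.7 CPM, against at most 45.3), adipocyte markers (202.9 CPM, against at most 100.7), endothelial markers (109 CPM, against at most 93.2) and macrophage markers (309 CPM, against at most 307). Without it Krt7 was at a log2 fold change of 0.88 (adjusted p = 0.00876), Spp1 at 0.75 (adjusted p = 3.45e-04) and Car2 at 1.89 (adjusted p = 0.0260) at day 7, and Krt18 at 0.25 with an adjusted p of 0.0265, under 1.5-fold.

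At day 7, 3 of the 9 genes were higher than at baseline and none was lower: Spp1, Krt7 and Car2. A gene was called where the edgeR adjusted p was at most 0.05 and the fold change at least 1.5, and 5.13% of the 12195 genes tested were called at day 7, with 3.82% called higher. Spp1 had the smallest p of the 9, Krt7 stood near the threshold, and Car2 had the largest fold change and the widest interval. The other 6 genes, among them the keratin Krt19 and the duct transcription factor Sox9, did not pass the test. All 9 genes passed the filter on low counts. The median log2 fold change of the 9 was 0.09, beside 0.02 over all genes tested. In edgeR 5 of the 9 had an unadjusted p under 0.05, beside 3925 of the 12195 genes.

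At day 14, none of the 9 genes was called against baseline or against day 7. By edgeR, 1 of the 9 had an unadjusted p under 0.05 in each of these comparisons, Spp1 both times, and DESeq2 called none of them either. Of the 12195 genes tested, 1619 against baseline and 1721 against day 7 had an unadjusted p under 0.05. The background of called genes was 0.787% for day 14 against baseline and 0.377% for day 14 against day 7. The median log2 fold change of the 9 was 0.02 at day 14 against baseline, beside 0.01 over all genes, and −0.11 at day 14 against day 7, beside −0.01. Day 7 and day 14 share the baseline mice, and their values stand side by side for each gene in what follows.

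**Figure D1:**
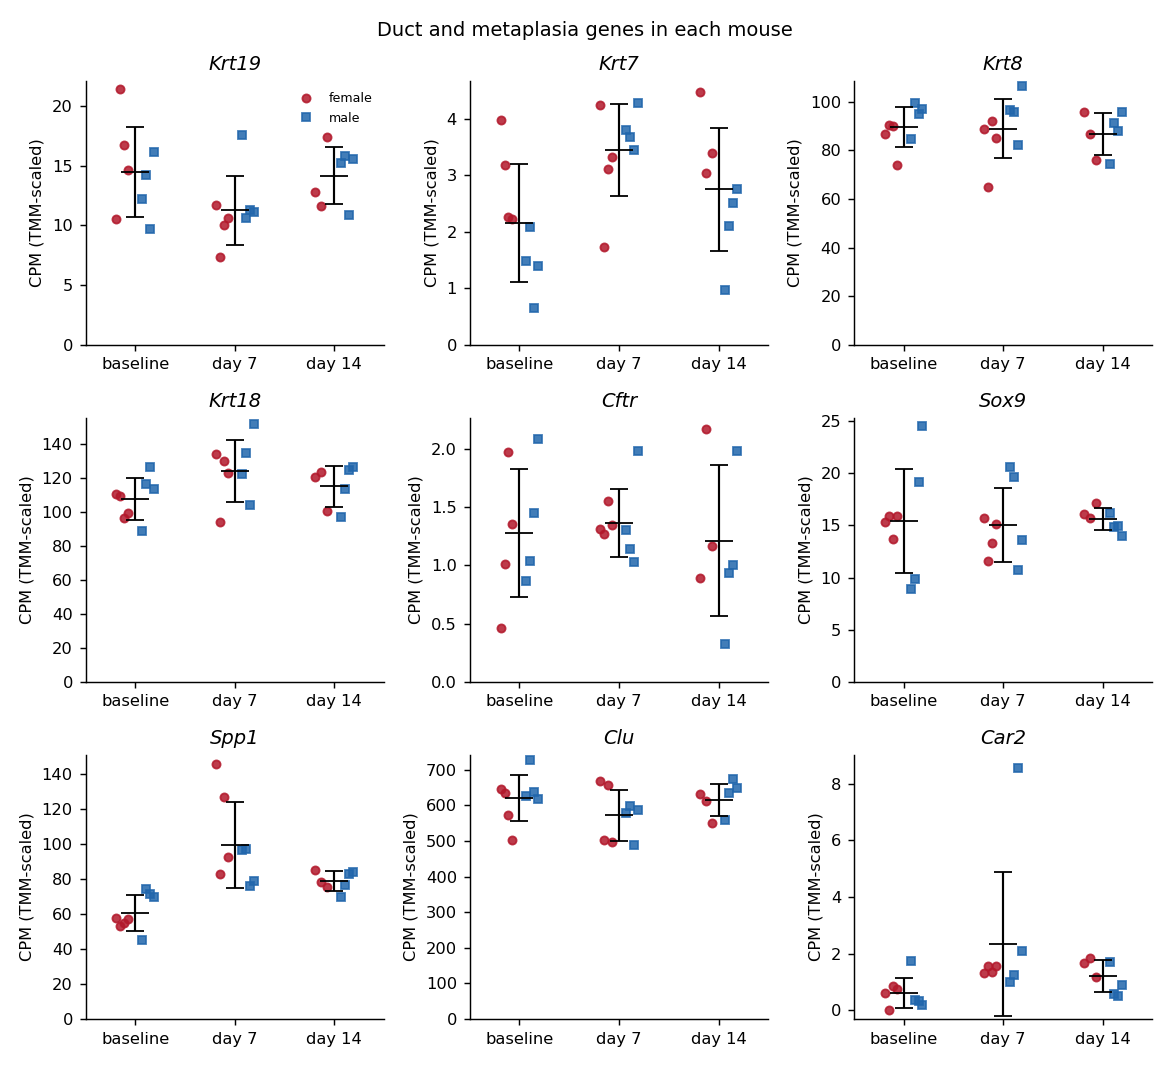
Levels of the 9 genes in CPM of the TMM-scaled library (vertical axes, from about 0) for each mouse at baseline, day 7 and day 14 (circles: females, squares: males; bars: mean ± SD of the group). The 8 day 7 mice lie above all baseline mice for Spp1, with 76.3 CPM as their lowest value against 74.4 CPM as the highest at baseline, and the groups overlap for the other 8 genes.

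**Figure D2:**
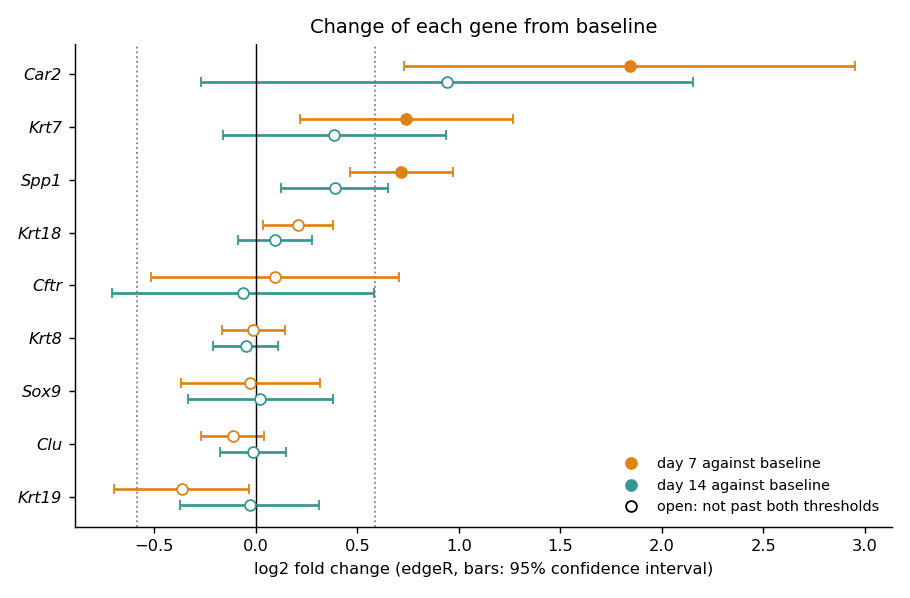
Log2 fold change of each gene at day 7 and at day 14 against baseline (horizontal axis), with the 95% confidence interval of the edgeR fit as bars; filled points passed both thresholds and the dotted lines mark a fold change of 1.5. Only Car2, Krt7 and Spp1 at day 7 are filled, and the intervals of Krt8, Krt18, Sox9 and Clu lie wholly between the dotted lines at both times.

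Compared per kilobase of principal transcript, the baseline levels of the 9 genes spanned a wide range. Clu stood highest at 343 ± 35.6 (SD, n = 8) CPM per kilobase, and Krt18 came next at 74.8 ± 8.43. Krt8 at 45.8 ± 4.13 and Spp1 at 43.0 ± 7.27 overlapped. Krt19 at 9.17 ± 2.39 and Sox9 at 3.73 ± 1.21 were lower and did not overlap with each other or with the genes above them. Krt7 at 0.526 ± 0.257, Car2 at 0.333 ± 0.301 and Cftr at 0.203 ± 0.0877 overlapped at the bottom of the order. At day 7 Spp1 had moved to 70.7 ± 17.4, between Krt18 at 86.3 ± 12.8 and Krt8 at 45.5 ± 6.28, and its range of 54.1 to 103 overlapped with both.

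Krt7 (chr15:101411043-101430313, plus strand, GRCm38, Ensembl ENSMUSG00000023039), a type II keratin of ducts, rose at day 7. Its level was 0.645 CPM in the lowest baseline mouse, 2.15 at the median and 3.98 in the highest. At day 7 the lowest, median and highest values were 1.72, 3.56 and 4.29 CPM. At day 14 they were 0.966, 2.76 and 4.48 CPM. A total of 2 of the 8 day 7 mice exceeded every baseline mouse, so the groups overlapped, and the counts behind these values were small, from 4 to 42 per mouse. Exons of Krt7 overlap Gm671 on the other strand, and the strand setting of the counting was not given. Reads of the 2 cannot be told apart within that overlap, which is small. Of the 75-base windows of Krt7 transcripts, 99.94% were unique and the rest were shared with Gm671. Krt7 had a log2 fold change of 0.74 (SE 0.26, 95% interval 0.22 to 1.27) with an adjusted p of 0.0428 at day 7, and 0.39 (SE 0.27, adjusted p = 0.584) at day 14. The call at day 7 was lost without the sex covariate (log2 fold change 0.67, adjusted p = 0.0852), with only the compared mice in the fit (0.70, adjusted p = 0.0609), and on leaving out any of 14 of the 23 mice: baseline mice 3, 4, 5, 6, 7 and 8, day 7 mice 9, 13, 14, 15 and 16, and day 14 mice 18, 19 and 22. Over all mice left out in turn the log2 fold change ranged from 0.61 to 0.88 and the adjusted p from 0.00876 to 0.0921.

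Krt19 (chr11:100140810-100148665, minus strand, ENSMUSG00000020911), the type I keratin most often used to mark ducts, was not higher at either time. Baseline mice ranged from 9.67 to 21.4 CPM with a median of 14.4. Day 7 mice ranged from 7.33 to 17.6 CPM with a median of 10.8, and day 14 mice from 10.9 to 17.4 CPM with a median of 15.2. The day 7 median lay below that of both other groups, but only 1 day 7 mouse was below every baseline mouse. In the fit, Krt19 had a log2 fold change of −0.37 (SE 0.16, 95% interval −0.70 to −0.03, adjusted p = 0.116) at day 7 and −0.03 (SE 0.17, 95% interval −0.37 to 0.31, adjusted p = 0.972) at day 14. Without day 7 mouse 13, the highest of its group at 17.6 CPM, the day 7 value was −0.49 with an edgeR adjusted p of 0.0191, under 1.5-fold.

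Krt8 (chr15:101996698-102004482, minus strand, ENSMUSG00000049382) and Krt18 (chr15:102028180-102032027, plus strand, ENSMUSG00000023043) encode the filament partners found in acinar and duct cells alike. The genes are neighbours, 23697 bases apart with no protein-coding gene between them. Krt8 ranged from 74.1 to 99.7 CPM (median 90.2) at baseline, from 65 to 107 CPM (median 90.4) at day 7 and from 74.6 to 95.9 CPM (median 88.0) at day 14. The 3 groups lay on top of each other, with log2 fold changes of −0.01 (SE 0.08, 95% interval −0.17 to 0.14) at day 7 and −0.05 (SE 0.08, 95% interval −0.21 to 0.11) at day 14. Krt18 ranged from 88.7 to 126 CPM (median 109.8) at baseline, from 93.7 to 152 CPM (median 126) at day 7 and from 96.8 to 126 CPM (median 120.1) at day 14. A total of 4 of the 8 day 7 mice were above every baseline mouse. Krt18 had a log2 fold change of 0.21 (SE 0.09, adjusted p = 0.0892) at day 7 and 0.09 (SE 0.09, adjusted p = 0.716) at day 14. Part of the Krt8 value is uncertain, because 76.5% of the 75-base windows of its transcripts were unique and the rest were shared with the pseudogene Krt8-ps or with Gm36026, which overlaps Krt8 on the other strand. All windows of Krt18 and Krt19 were unique.

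The 250 bases before the RefSeq start of Krt8 and of Krt18 (GRCm38.p6) are printed because these neighbours varied together from mouse to mouse, and those of Spp1 and Krt7 because both genes were called at day 7. Capitals mark any match, on either strand, to 5 motifs, none of which contains another. The TATA box was searched as TATAAA. The CCAAT box was searched by the letters of its name. For the GC box the letters were GGGCGG. An AP-1 motif was taken as TGANTCA, with any base at N. For RBPJ the search used TGGGAA. Promoters were matched by symbol for 5 of the 9 genes, Krt7, Krt8, Krt18, Spp1 and Cftr, and that of Cftr and of another start of Spp1 are not printed. All are shown in the direction of transcription.
Krt8 (chr15:102004343-102004592, minus strand): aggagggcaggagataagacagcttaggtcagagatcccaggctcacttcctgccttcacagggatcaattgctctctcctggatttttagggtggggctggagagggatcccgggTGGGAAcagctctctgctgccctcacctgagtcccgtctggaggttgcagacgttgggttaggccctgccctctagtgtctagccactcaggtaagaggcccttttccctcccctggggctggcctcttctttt
Krt18 (chr15:102027966-102028215, plus strand): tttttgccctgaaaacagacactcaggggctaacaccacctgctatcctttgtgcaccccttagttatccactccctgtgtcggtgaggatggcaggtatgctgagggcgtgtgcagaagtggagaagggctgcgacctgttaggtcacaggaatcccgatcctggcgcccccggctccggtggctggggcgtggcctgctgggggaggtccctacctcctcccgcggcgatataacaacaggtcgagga
Krt7 (chr15:101412153-101412402, plus strand): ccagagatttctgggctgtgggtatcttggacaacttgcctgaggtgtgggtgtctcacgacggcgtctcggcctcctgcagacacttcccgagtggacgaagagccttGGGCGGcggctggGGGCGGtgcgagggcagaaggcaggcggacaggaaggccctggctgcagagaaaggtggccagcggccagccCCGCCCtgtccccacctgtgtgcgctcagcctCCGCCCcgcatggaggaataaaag
Spp1 (chr5:104434861-104435110, plus strand): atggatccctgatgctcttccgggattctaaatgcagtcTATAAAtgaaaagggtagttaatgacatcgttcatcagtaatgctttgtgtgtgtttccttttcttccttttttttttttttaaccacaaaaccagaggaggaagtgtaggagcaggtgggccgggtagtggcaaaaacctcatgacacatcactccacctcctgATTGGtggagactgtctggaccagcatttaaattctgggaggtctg

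The Krt7 window held 4 GC boxes, a motif present in 32.7% of the 32851 RefSeq windows of the same length, and had 66.0% G and C, against a median of 52.4%. The Spp1 window held the letters TATAAA 211 bases before the start, a match present in 12.4% of windows. A CCAAT match, present in 33.8%, lay on the minus strand 46 bases before the start. The Spp1 window had 43.6% G and C. The Krt8 window held 1 RBPJ match 134 bases before the start, present in 21.6% of windows, and the Krt18 window held no match to any of the 5. No AP-1 match, found in 6.75% of windows, was present in these 4 windows. The matches are descriptions of the letters and show no binding.

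Because each keratin was counted in the same library as the others, their ratios need no scaling factor. Among the 6 ratios of 2 keratins, 2 differed between day 7 and baseline after adjustment. Krt8 counts stood at 0.747 to 0.956 of the Krt18 counts at baseline, with a geometric mean of 0.837, and at 0.663 to 0.793 at day 7, with a geometric mean of 0.719. A total of 6 of the 8 day 7 mice were below every baseline mouse, and the ratio was 0.859 times that at baseline (exact two-sided permutation p = 0.00264, adjusted over 18 ratio tests 0.0238). Krt7 counts stood at 0.0667 to 0.377 of the Krt19 counts at baseline, with a geometric mean of 0.136, and at 0.216 to 0.386 at day 7, with a geometric mean of 0.304. That was a 2.24-fold higher ratio (exact two-sided permutation p = 0.00171, adjusted 0.0238), although 1 baseline mouse reached into the day 7 range. At day 14 the Krt7 to Krt19 ratio was 0.180, 1.33-fold that at baseline (exact permutation p = 0.317), and the Krt8 to Krt18 ratio was 0.756, 0.904 times that at baseline (exact permutation p = 0.0261, adjusted 0.0706). These ratios were chosen after seeing the data, and the smallest p the design allows is 0.000155.

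**Figure D3:**
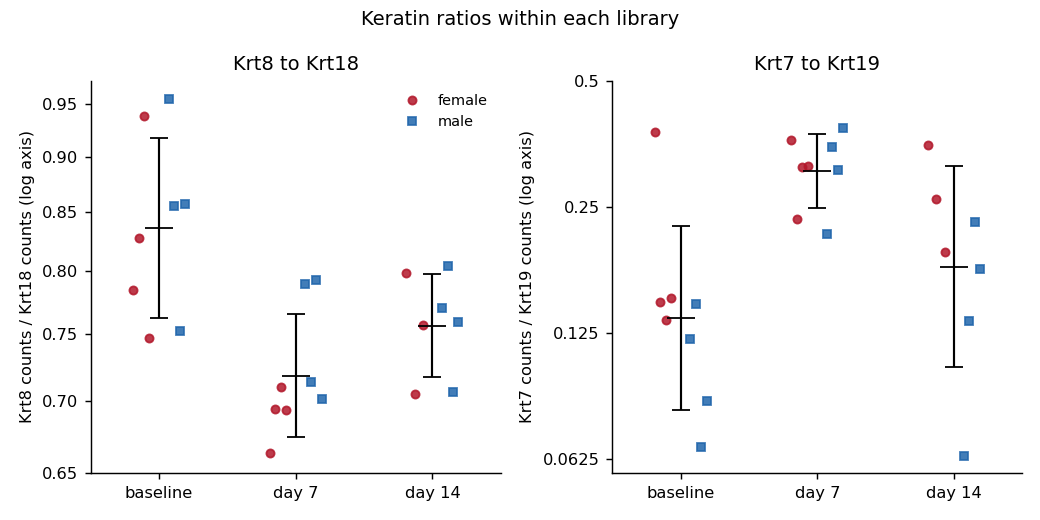
Ratio of Krt8 to Krt18 counts and of Krt7 to Krt19 counts in each library (logarithmic vertical axes) at baseline, day 7 and day 14 (circles: females, squares: males; bars: geometric mean and SD on the log2 scale). The day 7 mice have Krt8 to Krt18 ratios of 0.663 to 0.793 and Krt7 to Krt19 ratios of 0.216 to 0.386.

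Spp1 (chr5:104435118-104441050, plus strand, ENSMUSG00000029304), the gene of the secreted glycoprotein osteopontin, was the gene of the 9 whose day 7 and baseline mice did not overlap. Baseline mice ranged from 45.4 to 74.4 CPM with a median of 57.4. Day 7 mice ranged from 76.3 to 146 CPM with a median of 94.6, and day 14 mice from 70.0 to 85.3 CPM with a median of 78.3. All 8 day 7 mice were above all baseline mice, an order that 1.16% of the genes tested showed, and 6 of the 7 day 14 mice were above all baseline mice. The log2 fold change was 0.72 (SE 0.12, 95% interval 0.46 to 0.97, adjusted p = 3.14e-04), a 1.64-fold rise, and it stayed between 0.62 and 0.77 with adjusted p from 2.14e-04 to 0.00108 on leaving out each mouse in turn. At day 14 it was 0.39 (SE 0.13, 95% interval 0.12 to 0.65, adjusted p = 0.142), and with only the baseline and day 14 mice in the fit the adjusted p was 0.0126 at a fold change below 1.5. Day 14 lay 0.33 below day 7 on the log2 scale (SE 0.13, adjusted p = 0.220). Of the 75-base windows of Spp1, 91.5% were unique and the rest were shared with Gm42793, a transcript annotated within it on the same strand.

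Macrophage markers were higher at day 7 as well, with 9 of the 10 tested of 11 listed called higher (Ms4a7 by 1.86, C1qa by 1.05 and Mrc1 by 0.73 on the log2 scale). Their summed level ranged from 53.7 to 207 CPM at baseline, from 131 to 309 CPM at day 7 and from 90.2 to 176 CPM at day 14, and none of the 11 was at 0 in more than 1 mouse. The mice did not follow the same order for both. The 2 day 7 mice with the most Spp1, mouse 9 with 146 CPM and mouse 11 with 127 CPM, had the second lowest and the lowest macrophage sums of that group, 137 and 131 CPM. At baseline the mouse with the highest macrophage sum, 207 CPM, had the lowest Spp1, 45.4 CPM. The part of macrophages in the Spp1 difference was not tested.

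Clu (chr14:65968483-65981547, plus strand, ENSMUSG00000022037), the gene of the secreted chaperone clusterin, was the most abundant of the 9. It ranged from 503 to 729 CPM (median 630.1) at baseline, from 488 to 667 CPM (median 583) at day 7 and from 550.1 to 673 CPM (median 631) at day 14. A total of 3 of 8 day 7 mice were below every baseline mouse and none was above. Clu had a log2 fold change of −0.12 (SE 0.08, 95% interval −0.27 to 0.04, adjusted p = 0.305) at day 7 and −0.01 (SE 0.08, 95% interval −0.17 to 0.15, adjusted p = 0.975) at day 14.

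Car2 (chr3:14886273-14900770, plus strand, ENSMUSG00000027562) encodes a cytosolic carbonic anhydrase of duct cells and of red blood cells. Baseline mice had 0 to 14 counts each, day 7 mice 10 to 92 and day 14 mice 4 to 17. In CPM, baseline mice ranged from 0 to 1.72 with a median of 0.480, day 7 mice from 1.0 to 8.58 with a median of 1.45, and day 14 mice from 0.501 to 1.85 with a median of 1.17. At baseline 4 of the 8 mice were at or under 3 counts, the smallest number taken as detectable. Car2 had a log2 fold change of 1.84 (SE 0.54, 95% interval 0.73 to 2.95, adjusted p = 0.0187) at day 7 and 0.94 (SE 0.58, adjusted p = 0.529) at day 14. The size of the day 7 difference rested in part on mouse 15, which had 92 counts where the other 7 had 10 to 21, and without it the log2 fold change was 1.16 with an adjusted p of 0.0470. Mouse 15 was also the library with the erythrocyte marker sum of 678.5 CPM. Of 6 erythrocyte markers, 5 were tested and 4 were called higher at day 7, Hba-a1 and Hba-a2 with the same counts. Leaving out 1 mouse gave 0 to 5 calls: none without baseline mouse 6, 7 or 8, and 2 without baseline mouse 2, 3 or 5, day 7 mouse 15 or any of the 7 day 14 mice. Their sum ranged from 27.6 to 48.9 CPM at baseline, from 24.4 to 678.5 CPM at day 7 and from 55.3 to 122 CPM at day 14. The order of the mice by Car2 and by the erythrocyte sum was shared in part. At baseline mouse 5 was highest in both, with 1.72 and 48.9 CPM, and at day 7 mouse 16 came next to mouse 15 in both, with 2.09 and 137 CPM. Day 7 mouse 10, with the lowest erythrocyte sum of its group at 24.4 CPM, had 1.57 CPM of Car2, above the 1.0 to 1.33 CPM of mice 9, 11, 13 and 14. The part of red blood cells in the Car2 difference was not tested.

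**Figure D4:**
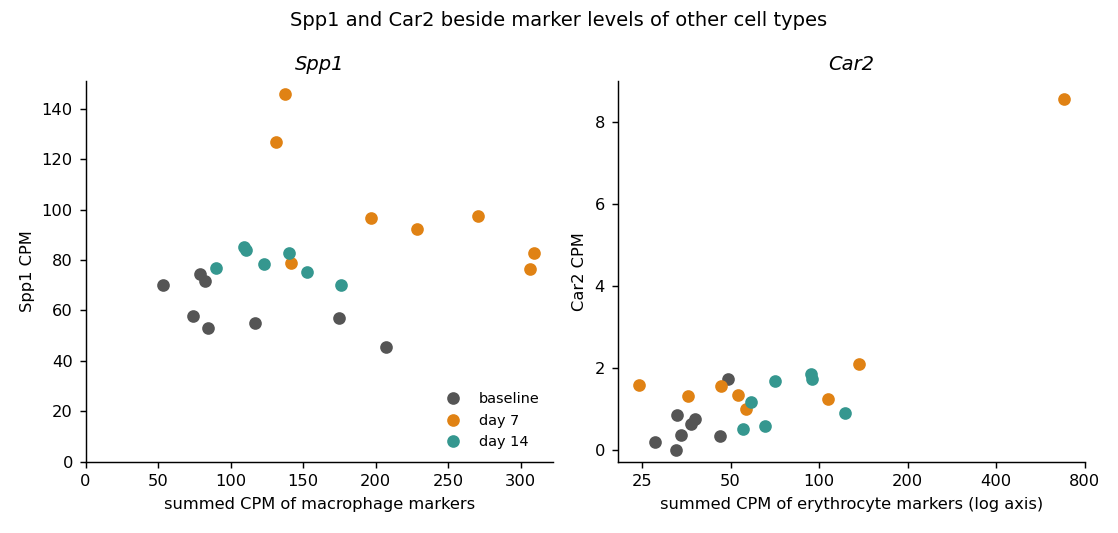
Spp1 against the summed CPM of 11 macrophage markers, and Car2 against the summed CPM of 6 erythrocyte markers (logarithmic horizontal axis), for each mouse at baseline, day 7 and day 14. The highest Spp1 values, 146 and 127 CPM, sit at macrophage sums of 137 and 131 CPM, and the highest Car2 value, 8.58 CPM, sits at the highest erythrocyte sum, 678.5 CPM.

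Cftr (chr6:18170687-18322768, plus strand, ENSMUSG00000041301), the apical chloride and bicarbonate channel of duct cells, was the least abundant of the 9 per kilobase. It ranged from 0.460 to 2.09 CPM (median 1.2) at baseline, from 1.03 to 1.98 CPM (median 1.31) at day 7 and from 0.322 to 2.17 CPM (median 1.0) at day 14, on 3 to 20 counts per mouse. These may hold some reads of Gm15592, whose exons overlap Cftr on the other strand. Of the 75-base windows of Cftr, 99.25% were unique and the rest were shared with Gm15592. The log2 fold change was 0.09 (SE 0.30, 95% interval −0.52 to 0.70, adjusted p = 0.858) at day 7 and −0.07 (SE 0.31, 95% interval −0.71 to 0.58, adjusted p = 0.969) at day 14. At this depth a 1.5-fold rise of Cftr lay within the interval at day 7 and a 1.5-fold fall within that at day 14.

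Sox9 (chr11:112782224-112787760, plus strand, ENSMUSG00000000567), the transcription factor that maintains duct identity, ranged from 8.86 to 24.5 CPM (median 15.6) at baseline, from 10.7 to 20.6 CPM (median 14.4) at day 7 and from 14.0 to 17.2 CPM (median 15.8) at day 14. Its log2 fold changes were −0.03 (SE 0.17, 95% interval −0.37 to 0.31) at day 7 and 0.02 (SE 0.17, 95% interval −0.33 to 0.38) at day 14. Its mean level was 15.4 CPM at baseline, 15 at day 7 and 15.6 at day 14, while its coefficient of variation was 32.4%, 23.5% and 6.82%. That coefficient was 7.01%, 13.3% and 4.61% in females, and 48.3%, 29.4% and 6.05% in males. The difference in spread was not tested.

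The direction given for Krt8, Clu, Sox9 and Krt19 at day 7 depended on how the libraries were scaled. The 20 most abundant genes took a smaller share of the counts at day 7, as given above. With total counts in place of TMM factors, the median log2 fold change of all genes tested moved from 0.02 to 0.47 at day 7, and 3674 genes were called higher and 21 lower, against 466 and 160 in the TMM fit. On that scale the log2 fold change was 0.44 for Krt8, 0.34 for Clu, 0.42 for Sox9 and 0.08 for Krt19, each below the median of all genes. Krt18 was at 0.66 and called, Spp1 at 1.17, Krt7 at 1.19 and Car2 at 2.30, each above it. The 8 day 7 mice were then above every baseline mouse for Krt8, Krt18, Clu and Spp1, an order that 20.5% of all genes tested showed under this scaling. With total counts that left out the 20 most abundant genes, the median of all genes was 0.10, Krt18 was at 0.28 (adjusted p = 0.00452, under 1.5-fold) and Krt8 at 0.06. Spp1, Krt7 and Car2 were called under all 4 scalings, and Krt19 had the lowest log2 fold change of the 9 under each.

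**Figure D5:**
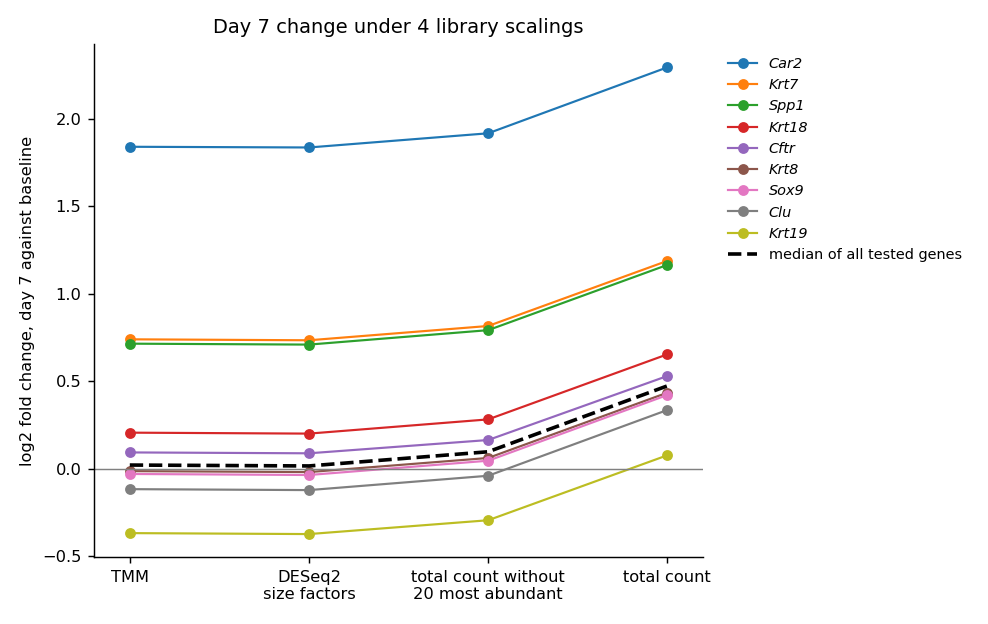
Log2 fold change of the 9 genes at day 7 against baseline (vertical axis) under 4 ways of scaling the libraries, with the median of all genes tested as a dashed line. The order of the genes is the same under each, while the median of all genes moves from 0.02 with TMM factors to 0.47 with total counts.

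Between the sexes, none of the 9 genes was called by edgeR over all time points, where 0.231% of the 11695 genes tested were. At an unadjusted p under 0.05 there was 1 of the 9, beside 1091 of the 11695 genes. It was Krt8, 0.13 higher in males on the log2 scale (SE 0.06, adjusted p = 0.526), and DESeq2 called none of the 9. A difference between the sexes in the change from baseline was tested as an interaction, and none of the 9 passed an adjusted p of 0.05 at day 7, where 0.00773% of 12933 genes did, or at day 14, where 0% did. At day 7, 3 of the 9 had an unadjusted p under 0.05 in edgeR, beside 703 of the 12933 genes. At day 14 none of the 9 had, beside 474 of all genes. DESeq2 gave no interaction call for the 9 genes at either time.

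These 3 genes were Krt7, Spp1 and Krt19. Krt7 was at 2.22, 2.25, 3.18 and 3.98 CPM in the baseline females and at 0.645, 1.39, 1.48 and 2.08 CPM in the baseline males. Over all time points its log2 fold change in males against females was −0.42 (SE 0.21, edgeR adjusted p = 0.542). At day 7 the females were at 1.72, 3.11, 3.32 and 4.25 CPM and the males at 3.45, 3.68, 3.80 and 4.29 CPM. The log2 fold change was 0.09 (adjusted p = 0.901) in a fit of the females and 1.42 (adjusted p = 0.0146) in a fit of the males, and the interaction was 1.35 (SE 0.45, adjusted p = 0.669). Spp1 was at 53.1, 55.2, 57.0 and 57.9 CPM in the baseline females and at 45.4, 70.1, 71.6 and 74.4 CPM in the baseline males. At day 7 the females were at 82.7, 92.5, 127 and 146 CPM and the males at 76.3, 78.9, 96.8 and 97.4 CPM. The log2 fold change was 1.0 (adjusted p = 0.00410) in females and 0.41 (adjusted p = 0.0707) in males, and the interaction was −0.58 (SE 0.22, adjusted p = 0.821). Krt19 had a log2 fold change of −0.69 (adjusted p = 0.0836) in females and −0.06 (adjusted p = 0.906) in males, with an interaction of 0.64 (SE 0.30, adjusted p = 0.914).

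Other genes of the duct were described with lists of fixed membership, which were chosen with earlier results of these data known. Of 15 tested duct channels and transporters, 2 were called higher at day 7 and none lower: the sodium bicarbonate cotransporter Slc4a4 by 0.64 (SE 0.16, adjusted p = 0.00606; under 1.5-fold without baseline mouse 7 or day 7 mouse 14) and the carbonic anhydrase Car9 by 0.91 (SE 0.28, adjusted p = 0.0213). The median of that list was −0.10, beside 0.02 over all genes. Of 12 tested duct transcription factors 1 was called, Prox1, higher by 0.76 (SE 0.18, adjusted p = 0.00440), and the list median was 0.0033. Of 18 tested genes listed for the surface and junctions of ducts and simple epithelia, 2 were called higher. They were Ambp by 1.07 (adjusted p = 1.2e-04) and Pigr, the polymeric immunoglobulin receptor, by 0.69 (adjusted p = 0.00450). The list median was 0.06, and 4 were called without day 7 mouse 10 or 12. Ambp encodes alpha 1 microglobulin/bikunin, a secreted protein. Ambp and Pigr were called at day 14 too, by 1.24 (adjusted p = 2.49e-04) and 0.87 (adjusted p = 0.00541). Without day 14 mouse 19 they were at 0.99 (adjusted p = 2.11e-04) and 0.78 (adjusted p = 0.0299), and still called. By edgeR and DESeq2 alike no channel and no transcription factor of these lists was called at day 14, with 1 of 15 and 3 of 12 at an unadjusted p under 0.05. The summed level of the channels had a median of 392 CPM at baseline, 394.5 at day 7 and 389 at day 14, and that of the transcription factors 153, 152 and 149 CPM.

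Among genes linked to metaplasia and injury, 7 of 21 tested were called higher at day 7 and 1 lower, with a list median of 0.47, and 5 were called in all without day 7 mouse 14. Over all genes 3.82% were called higher and 1.31% lower, with a median of 0.02. The list was chosen with earlier results of these data known. It holds Agr2 and Cd44, which the study had reported as differing, so its share of calls is a description only. The summed level of the list had a median of 3072 CPM at baseline, 2478 at day 7 and 3022 at day 14. Its largest part was Tff2, at means of 2127, 1587 and 2014 CPM. Agr2, a disulfide isomerase of mucous cells, had the smallest p of the list, higher by 2.5 (SE 0.30, adjusted p = 3.82e-06) at day 7 and by 1.42 (SE 0.32, adjusted p = 0.0203) at day 14, a call that was lost without day 14 mouse 19 (adjusted p = 0.0571). Tm4sf4, a tetraspanin-like membrane protein, was higher by 0.76 (adjusted p = 3.89e-04) and vimentin, Vim, by 0.77 (adjusted p = 0.00710). The stress gene Nupr1 fell by 0.62 on the log2 scale (SE 0.11, adjusted p = 5.21e-04), a change under 1.5-fold without baseline mouse 2 or 8 or day 7 mouse 13 or 14. Macrophage and fibroblast markers were higher at day 7 as well, and which cells held the changes of this list was not tested. Among 11 tested receptors of osteopontin and clusterin, Cd44, which binds osteopontin and is also 1 of the 7 above, was called, higher by 1.01 (SE 0.30, adjusted p = 0.0222), with a list median of 0.22, and was not called without day 7 mouse 10 (0.88, adjusted p = 0.0524). Of 6 further epithelial keratins found in the files 2 were tested and none was called by edgeR, nor had an unadjusted p under 0.05. Krt23 was at 12.9, 10.9 and 13.1 CPM. Krt20, a keratin of gut and metaplastic epithelium named after its values were seen, did not pass the filter of edgeR at mean levels of 0.145, 1.16 and 0.317 CPM, and DESeq2 called it higher at day 7. Of 15 acinar genes 5 were called lower and none higher at day 7, with a list median of −0.36. Prss2 fell by 0.94, Pnlip by 0.88, Cpa1 by 0.87 and Ctrb1 by 0.70 on the log2 scale. None of those 5 was called with total count scaling.

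Markers of other cells that make genes of the 9 were measured beside them. For mesothelium, none of 7 tested markers was called at day 7 by edgeR or DESeq2, and 1, Gpm6a, had an unadjusted p under 0.05 in edgeR (0.55, adjusted p = 0.0371). Leaving out baseline mouse 3 or 4 or day 7 mouse 10 or 11 gave 1 mesothelial call. Their sum ranged from 10.8 to 38.8 CPM at baseline, from 14.8 to 36.9 CPM at day 7 and from 9.71 to 18.7 CPM at day 14. The defining mesothelin gene Msln was at 3.09, 3.45 and 2.64 CPM. None of the duodenal markers passed the filter. Of 8 fibroblast and stellate markers 6 were called higher at day 7 (median 0.86), of 7 islet markers 4 (median 0.97), and of 5 adipocyte, 6 endothelial, 3 lymphocyte and 3 liver markers none in edgeR, with 3 of the endothelial markers and none of the others at an unadjusted p under 0.05, and 1 endothelial call without day 7 mouse 10. DESeq2 called none of the other 3 kinds and 1 liver marker, Cyp3a11, which had no count in 20 of the 23 mice and did not pass the filter of edgeR. The part of these cells in the values of the 9 genes was not tested.

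After subtraction of each time point's mean, the log2 CPM of the 9 genes gave 36 pairs of correlations over 23 mice. Pearson's r ranged from −0.52 to 0.83 with a median of 0.19, and 5 pairs were above 0.5. Krt8 and Krt18 had the highest r, 0.83 (Spearman's rho 0.76), followed by Krt8 with Clu at 0.68, Krt18 with Clu at 0.66, Spp1 with Clu at 0.65 and Krt18 with Spp1 at 0.56. Krt7 and Krt19 had an r of 0.31, and Krt19 with Sox9 0.28. The lowest r was that of Sox9 and Car2, −0.52. The points share library, depth and the scaling factor, and the values are descriptions with no test. The 3 genes outside the 9 that were most like Krt8 by r were Ctsl (0.89), Sars (0.89) and Gjb2 (0.84), and those most like Krt18 were Arcn1 (0.90), Nbr1 (0.90) and Sel1l3 (0.89). For Clu they were Ddx49 (0.90), Tmed3 (0.88) and Gstp1 (0.87), and for Spp1 Cryab (0.85), Hook1 (0.83) and Alg5 (0.82). For Sox9 they were Cxxc5 (0.87), Lrig1 (0.85) and Ctdspl (0.78), for Krt7 Rian (0.87), Gfra1 (0.84) and Map3k15 (0.82), and for Krt19 Abcg5 (0.78), Rnf8 (0.77) and Rapgefl1 (0.75). For Cftr they were Sf3b5 (0.78), Gm7120 (0.77) and Eif4e2 (0.73), and for Car2 Flt3l (0.76), Cpxm1 (0.76) and Tnip1 (0.72). With Spearman's rho in place of Pearson's r, 2 of the 3 genes stayed among the first 3 for Sox9 and Clu, 1 for Krt7, Krt8, Spp1 and Car2, and none for Krt19, Krt18 and Cftr.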

How the data were processed

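RNA of the pancreas head of the 23 mice was depleted of ribosomal RNA and sequenced as paired reads from stranded libraries. The study left out a further day 14 female because few of its reads mapped. By the study's mapping statistics, the share of duplicate reads was higher in the baseline libraries than in those of day 7. The share of reads in coding exons was higher in every day 14 library used than in any baseline or day 7 library. Such differences between libraries cannot be told apart from the time point. Per the labels and the study's methods, the authors trimmed the reads with Trim Galore and cutadapt, aligned them to mm10 with STAR 2.5.2a and deposited featureCounts counts of uniquely mapped fragments per gene symbol. The annotation and the strand setting of the counting were not given in the sources used here. Each file was checked to hold whole numbers for the same 18512 symbols, and no pair of libraries of a group agreed within sampling noise.

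The deposited counts went into edgeR 4.0.16 under R 4.3.3 with limma 3.58.1 (TMM factors, filterByExpr by group, glmQLFit with robust = TRUE, glmQLFTest). All 23 mice entered a single fit adjusted for sex, as in the study's design, where edgeR stands in place of DESeq2. The sexes were compared over time points with time as a covariate, and the interaction in a fit of the 6 groups of sex and time. P-values are two-sided, Benjamini-Hochberg adjusted over all genes tested. Standard errors were derived from the F statistic and the log2 fold change. Levels are CPM of the TMM-scaled library, and log2 CPM used a prior count of 2. Each library is 1 mouse, so p-values measure the spread between mice.

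Alternatives were DESeq2 1.42.0, other scalings, filters (none, or 10 counts in every mouse), covariates, each sex alone and each mouse left out. Ratios of keratin counts were added after seeing the data and tested by exact permutation over mice. Coordinates, transcripts and uniqueness of 75-base windows came from GENCODE vM21 (GRCm38), promoters from RefSeq. Named genes are all 9 members, and from each other list the genes called against baseline, at most 4 by smallest p at day 7, or, with none called, the most abundant, and for each member the 3 genes with the highest r. The members and lists were chosen with earlier results of these data known. The fit of the time points was tested on simulated data with changes in randomly picked genes at day 7. That simulation did not model the smaller share of the 20 most abundant genes at day 7. Further steps ran in Python 3.11.15 (scipy 1.17.1, pandas 2.3.3, numpy 2.4.6; plots with matplotlib 3.10.9).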

Additional observations from a re-analysis of the deposited data

Results flagged for a closer look

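Each of the 27 groups of 7 or 8 mice (9 genes at 3 time points) was examined for a highest or lowest log2 CPM far from the rest by Dixon's 95% critical value, which chance exceeds in about 1 in 20 groups, and 2 groups exceeded it. In Krt7 at day 7 the lowest mouse, mouse 10, was at a log2 CPM of 0.964 (23 counts), and the next was at 1.74, a gap of 0.642 of the range of the group. That mouse also had the lowest Krt8, Krt18 and Krt19 of the group. Its acinar and islet marker sums were the lowest of the day 7 mice, and its macrophage, lymphocyte, adipocyte and endothelial sums the highest, at 309, 83.7, 202.9 and 109 CPM. Their part in its keratin values was not tested. In Car2 at day 7 the highest mouse, mouse 15, was at a log2 CPM of 3.14 (92 counts), and the next was at 1.21, a gap of 0.678 of the range. The erythrocyte marker sum was highest in the same mouse, at 678.5 CPM.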

How the results depend on the processing

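The call of Spp1 at day 7 held under every alternative except males alone (log2 fold change 0.41, adjusted p = 0.0707), and that of Car2 under all but females alone (1.36, adjusted p = 0.127) and males alone (2.18, adjusted p = 0.168). Car2, Krt7 and Cftr were not tested with at least 10 counts in every mouse. At day 7, 1 of the 9 genes was called with at least 10 counts in every mouse, with females only and with males only, against 3, and at day 14 total count scaling called 1, Spp1 (0.61, adjusted p = 4.52e-04), against none. Krt7 also lost its call with no filter (0.75, adjusted p = 0.0550). With each mouse left out in turn, 3 or 2 genes were called at day 7 and none at day 14. Log2 fold changes that were not called took the opposite sign as follows. With total count scaling they were 0.078 (Krt19), 0.44 (Krt8), 0.42 (Sox9) and 0.34 (Clu) at day 7, 0.18 (Krt19), 0.17 (Krt8), 0.14 (Cftr) and 0.21 (Clu) at day 14, and −0.18 (Sox9) and −0.13 (Clu) for day 14 against day 7. Without the 20 most abundant genes they were 0.063 (Krt8) and 0.047 (Sox9) at day 7, 0.0048 (Clu) at day 14 and −0.0046 (Sox9) for day 14 against day 7. With at least 10 counts in every mouse Krt8 was at 0.0084 at day 7. In females alone they were 0.0097 (Krt8), 0.22 (Cftr) and 0.016 (Clu) at day 14, and 0.24 (Krt7), 0.057 (Krt8), 0.039 (Cftr) and 0.10 (Car2) for day 14 against day 7. In males alone they were 0.0025 (Krt8), −0.0054 (Cftr) and 0.048 (Sox9) at day 7, 0.14 (Krt19) and −0.048 (Sox9) at day 14, and −0.097 (Sox9) for day 14 against day 7. Leaving out each mouse gave −0.044 to 0.038 (Krt8), −0.036 to 0.23 (Cftr) and −0.12 to 0.098 (Sox9) at day 7, −0.11 to 0.073 (Krt19), −0.28 to 0.10 (Cftr), −0.075 to 0.15 (Sox9) and −0.049 to 0.021 (Clu) at day 14, −0.084 to 0.0034 (Krt8), −0.37 to 0.0068 (Cftr) and −0.0088 to 0.14 (Sox9) for day 14 against day 7, and −0.13 to 0.046 for the log2 Krt8 to Krt19 ratio at day 14. The cause was not tested. The number of genes called of all tested at day 7 was 2264 without the fold threshold, 3695 with total counts, 348 with at least 10 counts in every mouse and 235 in females alone, against 626. At day 14 it was 192 without the fold threshold, 448 with total counts, 32 in females alone and 12 in males alone, against 96. For day 14 against day 7 it was 157 without the fold threshold, 71 with DESeq2, 473 with total counts, 30 with at least 10 counts in every mouse and 5 in females alone, against 46, and 22 to 57 on leaving out each mouse. DESeq2 called 45 genes between the sexes against 27, and 19 against 1 for the interaction at day 7. No paired analysis was possible because the mouse numbers in the labels run through all groups and no number occurs in more than 1 of them. The depth limits Krt7, Cftr and Car2, whose group medians were 3 to 37.5 counts per mouse.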

Other observations

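Stromal and endocrine genes stood beside the duct genes as follows. Among fibroblast and stellate markers, Lum, a collagen-binding proteoglycan, was higher at day 7 by 1.41 on the log2 scale (SE 0.16, edgeR adjusted p = 1.57e-06), Pdgfra by 0.88 (SE 0.09, adjusted p = 3.05e-07), the collagen gene Col3a1 by 1.10 (SE 0.17, adjusted p = 1.53e-04) and Dcn by 0.78 (SE 0.14, adjusted p = 4.81e-04). At day 14, 2 of the 8 were called, Lum by 0.90 (adjusted p = 0.00364) and Pdgfra by 0.63 (adjusted p = 4.4e-04; under 1.5-fold without mouse 19). Of the islet markers, Iapp (amylin) was higher at day 7 by 1.11, the insulin genes Ins1 by 1.04 and Ins2 by 0.97, and Chga by 0.86, a call that was lost on leaving out any of 16 of the 23 mice, and none of the 7 was called at day 14, with 3 at an unadjusted p under 0.05 in edgeR and none called by DESeq2. The trefoil factor gene Tff2 was at a mean of 2127 CPM at baseline, 1587 at day 7 and 2014 at day 14, a log2 fold change of −0.42 at day 7 (adjusted p = 0.00116) that was under the fold threshold. The liver gene Alb was called at day 14 by edgeR (5.35, adjusted p = 0.0417) and not by DESeq2. Without mouse 19, whose liver marker sum was 598.7 CPM, Alb was at 2.01 with an adjusted p of 0.286, and the call was lost on leaving out any of 11 of the 23 mice: the 8 baseline mice, day 7 mouse 9 and day 14 mice 19 and 21.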
